A study of Saccharomyces cerevisiae with 16 samples.

Results

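SNF1, SNF4, SIP1, SIP2, GAL83, REG1, MIG1, MIG2 and MIG3 encode the subunits of the Snf1 protein kinase of baker's yeast, the phosphatase subunit that counteracts it and the repressors of the glucose response. They were chosen by gene symbol, as 9 of the 5449 genes with a named probe set on the arrays, and each of them had 1 probe set. Total RNA of steady-state chemostat cultures was hybridised to 16 Affymetrix yeast arrays. The strain was either the reference SCE090 or the mutant SCE088, and no label gives the mutation that SCE088 carries. Each strain grew on glucose or on ethanol with 1 of 2 growth-limiting nutrients, the carbon source itself or the nitrogen source ammonium sulfate, which gives 8 groups of 2 arrays. The groups are called glucose-limited, nitrogen-limited on glucose, ethanol-limited and nitrogen-limited on ethanol. For that reason no targeted gene was checked in the mutant strain.

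Snf1 is the yeast form of the AMP-activated protein kinase. The complex holds the catalytic subunit Snf1, the gamma subunit Snf4 and a beta subunit, which is Sip1, Sip2 or Gal83. Reg1 brings the Glc7 phosphatase to Snf1 and keeps the kinase inactive while glucose is ample. When glucose runs low, active Snf1 phosphorylates Mig1, a zinc finger repressor, which then leaves the nucleus, so that genes for other sugars, respiration and gluconeogenesis are freed from repression. Mig2 and Mig3 are related zinc finger repressors whose genes are known to be switched on by glucose, through the Snf3 and Rgt2 sensors and the repressor Rgt1. In a chemostat the limiting nutrient stays at a low residual level while the other nutrients remain in excess. The arrays measure transcripts, so they report neither the phosphorylation of a protein nor its place in the cell.

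Values are log2 of the deposited intensities, with array medians of 11.91 to 12.01. Across probe sets the 2 replicate arrays had Pearson correlations of 0.984 to 0.997. All 16 arrays were fitted together in limma, with a mean for each of the 8 groups, and the fit gave each difference, its standard error (SE) and a Benjamini-Hochberg adjusted p over 5716 probe sets, and a difference passed the test at an adjusted p under 0.05. Whether replicate arrays stem from separate cultures is not stated in the labels. The p-values therefore measure only how far replicate arrays lie apart, possibly for technical reasons, and the small number of arrays limits the precision. In bulk RNA, fewer cells that express a gene and less RNA per cell cannot be told apart. The labelled conditions were checked with known genes. All 7 measured genes of nitrogen catabolite repression rose under nitrogen limitation on glucose in both strains, with a median log2 difference of 1.76 in the reference strain against 0.0024 over all probe sets, and DAL5, which encodes an allantoate permease, rose by 3.36. All 7 genes of gluconeogenesis and ethanol use were higher on ethanol than on glucose under nitrogen limitation in both strains, with a median of 3.14 in the reference strain against 0.0162 over all probe sets, and ADH2, the ethanol-oxidising alcohol dehydrogenase, was higher by 4.87. Elsewhere the checks were less complete. On ethanol 6 of the 7 nitrogen genes rose in the reference strain and 5 in the mutant strain, and under carbon limitation 6 and 5 of the 7 ethanol genes were higher on ethanol, while JEN1, a lactate permease gene, was lower in the mutant strain (difference -0.60).

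The members differed widely in how much their transcripts moved over the 8 groups. The group means of MIG2 spanned 2.63 on the log2 scale, those of MIG3 2.57, MIG1 1.38, SIP1 1.12 and SIP2 1.05. The means of SNF1 spanned 0.86, those of GAL83 0.54, SNF4 0.39 and REG1 0.16. In the moderated F test for any difference between the groups 8 of the 9 members passed, where 72.9% of all probe sets did. REG1 did not pass (adjusted p = 0.192, limma).

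**Figure D1:**
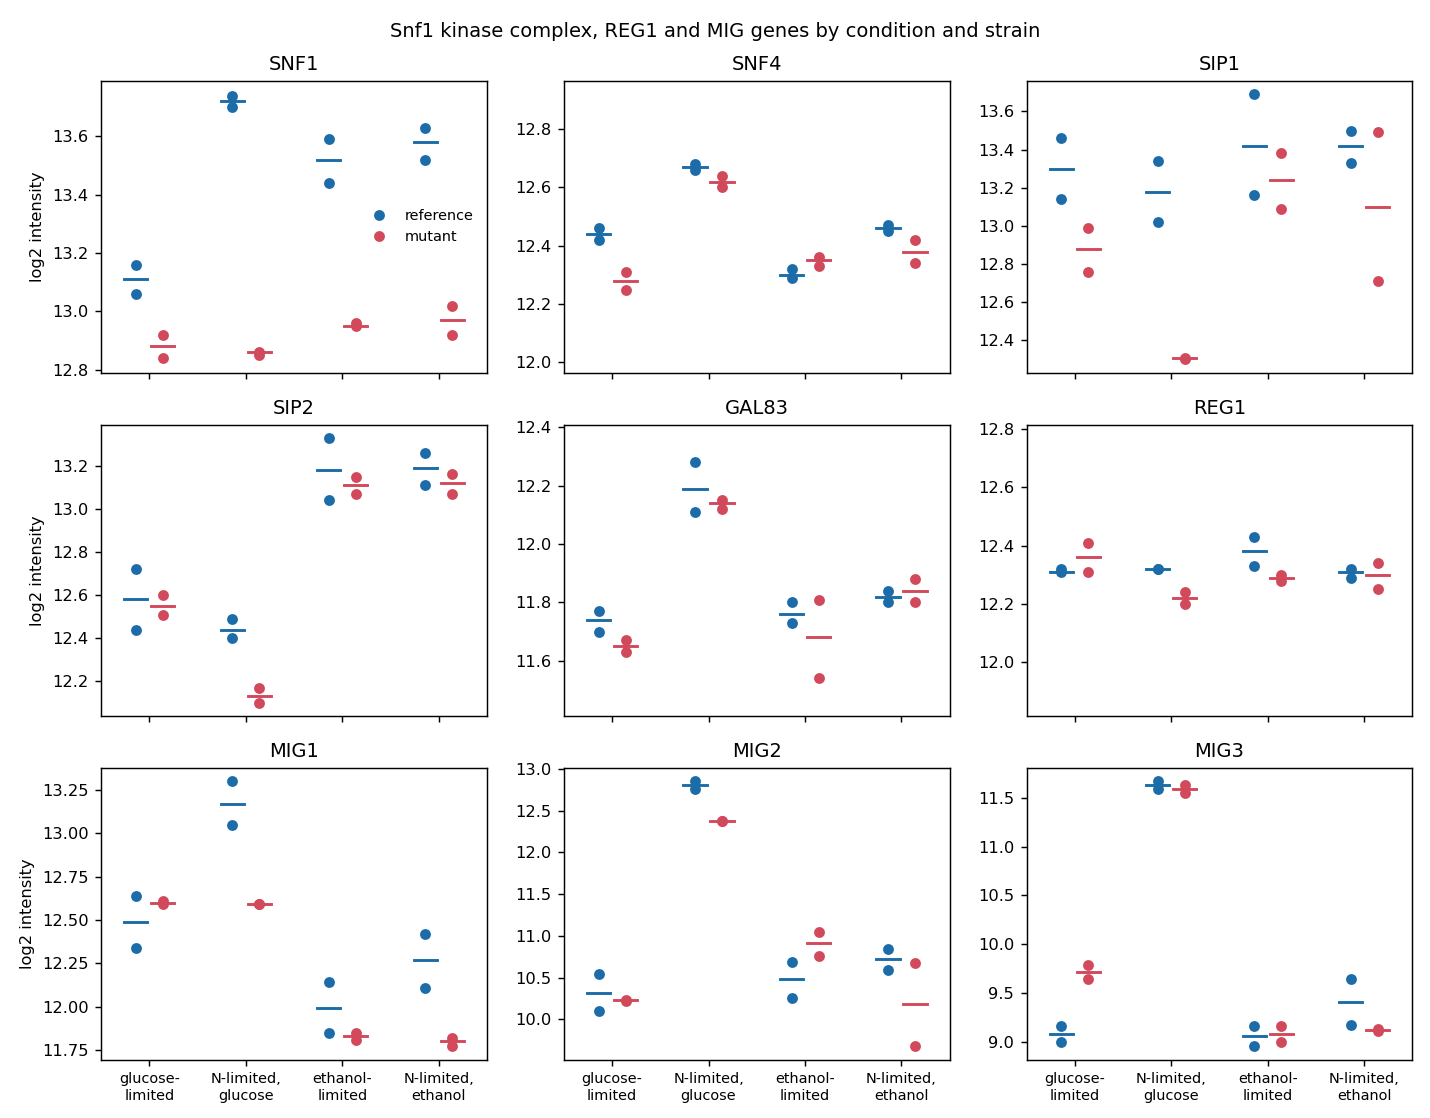
Log2 intensity of each member (vertical axis, at least 1 log2 unit tall and scaled for each gene) in the 4 conditions (horizontal axis), for the reference strain (blue) and the mutant strain (red). Points are single arrays, 2 in each group, and bars are group means. MIG2 and MIG3 stood far above their other groups in nitrogen-limited cells on glucose, with means of 12.80 and 11.63 in the reference strain, and SNF1 was lower in the mutant strain in every condition.

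SNF1, the catalytic subunit, was highest in the reference strain limited for nitrogen on glucose, where the 2 arrays read 13.70 and 13.74. Nitrogen-limited cells on ethanol followed with 13.63 and 13.52, ethanol-limited cells with 13.59 and 13.44, and glucose-limited cells came last in that strain with 13.06 and 13.16. The ranges of both ethanol groups overlapped, and the highest and the lowest group stood clear of all others of the strain. In the mutant strain the arrays read 12.92 and 12.84 in glucose-limited cells, 12.86 and 12.85 in nitrogen-limited cells on glucose, 12.96 and 12.95 in ethanol-limited cells and 13.02 and 12.92 in nitrogen-limited cells on ethanol. All 8 arrays of the mutant strain thus lay below all 8 arrays of the reference strain.

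SNF4, the activating gamma subunit, was highest in nitrogen-limited cells on glucose in both strains, with 12.66 and 12.68 in the reference strain and 12.60 and 12.64 in the mutant strain. All the other arrays read between 12.25 and 12.47. The lowest group mean was that of glucose-limited cells of the mutant strain, at 12.28, and it was not separated from ethanol-limited cells of the reference strain at 12.30.

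Among the beta subunits, which place the kinase in the cell, SIP2 followed the carbon source. It read 13.04 to 13.33 on the 4 ethanol arrays of the reference strain and 13.07 to 13.16 on those of the mutant strain. On glucose it read 12.40 to 12.72 in the reference strain and 12.10 to 12.60 in the mutant strain. Every ethanol array was above every glucose array, and the lowest group was nitrogen-limited cells of the mutant strain on glucose, with 12.10 and 12.17.

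Replicate arrays of SIP1 lay far apart. The 2 arrays of ethanol-limited reference cells read 13.69 and 13.16, and those of nitrogen-limited mutant cells on ethanol 13.49 and 12.71. The ranges of neighbouring groups overlapped all the way down the order of the means, except for the lowest group, nitrogen-limited mutant cells on glucose, at 12.30 and 12.31. The third beta subunit, GAL83, known to bring Snf1 to the nucleus, behaved otherwise. It was highest in nitrogen-limited cells on glucose, with 12.11 and 12.28 in the reference strain and 12.15 and 12.12 in the mutant strain, and its other 6 group means lay between 11.65 and 11.84.

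REG1, the regulatory subunit of the Glc7 phosphatase, read between 12.20 and 12.43 on all 16 arrays. Its lowest group was nitrogen-limited mutant cells on glucose, at 12.24 and 12.20.

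MIG1, the repressor that Snf1 phosphorylates, was highest in nitrogen-limited reference cells on glucose, with 13.30 and 13.05. Glucose-limited reference cells read 12.34 and 12.64, nitrogen-limited cells on ethanol 12.42 and 12.11, and ethanol-limited cells 12.14 and 11.85. Apart from the highest group, neighbouring groups in this order overlapped. In the mutant strain the arrays of a group were nearly equal, with 12.61 and 12.59 in glucose-limited cells, 12.59 on both arrays of nitrogen-limited cells on glucose, 11.81 and 11.85 in ethanol-limited cells and 11.82 and 11.77 in nitrogen-limited cells on ethanol. The mutant groups split by carbon source and not by limitation.

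MIG2 and MIG3 were raised in a single condition. MIG2 read 12.85 and 12.76 in nitrogen-limited reference cells on glucose and 12.37 on both arrays of the mutant strain, while the other 12 arrays read between 9.68 and 11.05. MIG3 read 11.67 and 11.59 in nitrogen-limited reference cells on glucose and 11.55 and 11.63 in the mutant strain, while the other 12 arrays read between 8.95 and 9.79. For both genes every array of this condition was above every other array. The next group for MIG3 was glucose-limited cells of the mutant strain, at 9.64 and 9.79, above the 8.996 and 9.16 of the reference strain. The next group for MIG2 was ethanol-limited cells of the mutant strain, at 10.76 and 11.05.

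The comparison of nitrogen with glucose limitation asks what changes when nitrogen takes the place of glucose as the limiting nutrient. Glucose then turns from scarce to ample and nitrogen from ample to scarce, and these changes cannot be told apart here. In the reference strain 6 of the 9 members rose and no other member passed the test, where 43.6% of all probe sets passed and 21.4% were higher. The median difference of the members was 0.46 on the log2 scale, against 0.0024 over all probe sets. Catalytic SNF1 rose by 0.61 (SE 0.0626, adjusted p = 2.5e-05), SNF4 by 0.23 and GAL83 by 0.46. The repressor genes rose together, MIG1 by 0.68 (SE 0.133, adjusted p = 0.00186), MIG2 by 2.49 or 5.61-fold (SE 0.278, adjusted p = 4.71e-05) and MIG3 by 2.55 or 5.85-fold (SE 0.136, adjusted p = 1.56e-07). SIP1, SIP2 and REG1 had differences of -0.12, -0.13 and 0.01 with adjusted p from 0.359 to 0.902. These calls stood without any 1 of the 4 arrays, and the call of SNF4 was lost where only these 4 arrays were fitted (adjusted p = 0.0643).

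In the mutant strain, the same change of limitation raised 4 members and lowered 2, where 48.8% of all probe sets passed, and 25.2% were higher and 23.6% lower. MIG2 rose by 2.14 or 4.41-fold, MIG3 by 1.87 or 3.67-fold, GAL83 by 0.48 and SNF4 by 0.34. SIP2 fell by 0.42 (adjusted p = 0.00812) and REG1 fell by 0.14 (adjusted p = 0.0418). SIP1 had a larger difference of -0.57 that did not pass (adjusted p = 0.0886), and it passed with only the arrays compared in the fit (adjusted p = 0.00579). SNF1 had a difference of -0.03 (95% interval -0.166 to 0.113) and MIG1 -0.02 (95% interval -0.311 to 0.28), so changes of the size seen in the reference strain lay outside both intervals. The call of SIP2 was lost without array 2 of the glucose-limited group (-0.38, adjusted p = 0.0543) or without array 1 of the nitrogen-limited group (-0.39, adjusted p = 0.0516). The call of REG1 was lost without array 1 of the glucose-limited group (-0.09, adjusted p = 0.273) or without array 1 or 2 of the nitrogen-limited group (-0.16 and -0.11, adjusted p = 0.0709 and 0.193), and after quantile normalization (adjusted p = 0.0554).

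**Figure D2:**
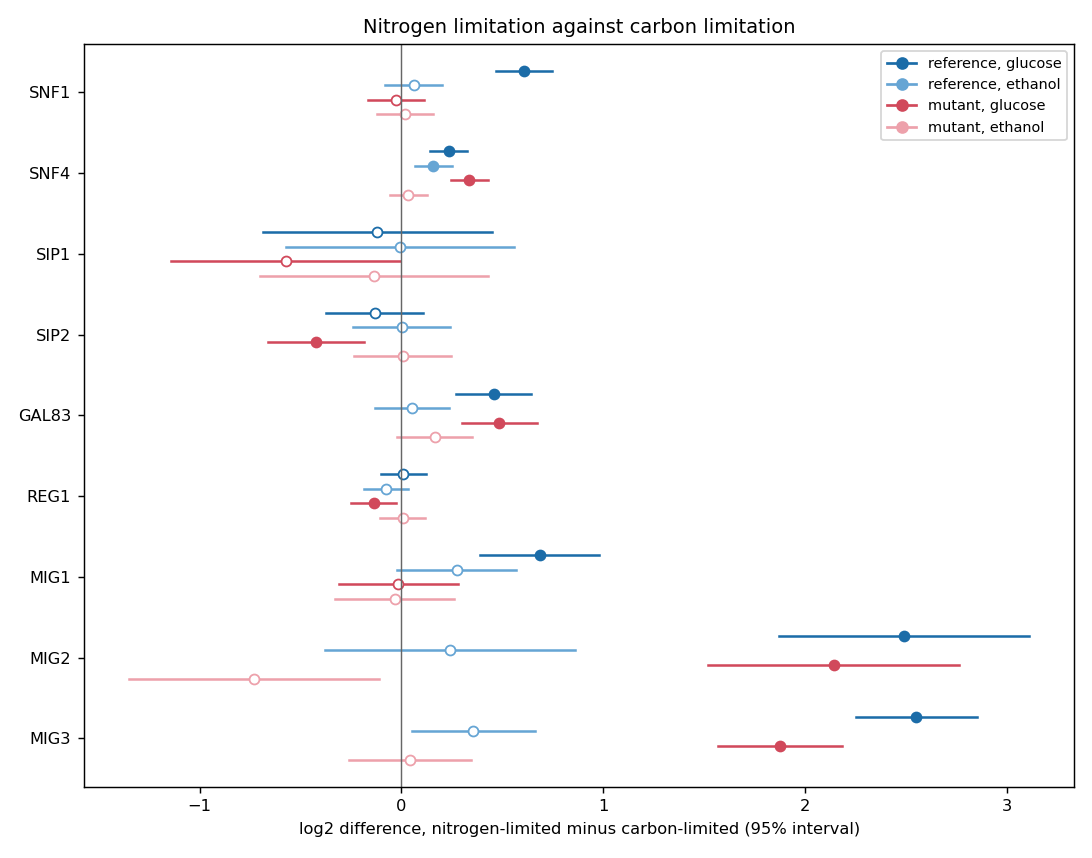
Log2 difference of each member between nitrogen and carbon limitation (horizontal axis) on glucose and on ethanol in both strains, with 95% intervals from the limma fit. Filled points passed the test at an adjusted p under 0.05. MIG2 and MIG3 rose by 2.49 and 2.55 in the reference strain on glucose, while on ethanol SNF4 of the reference strain was the only filled point, at 0.16.

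The test of the difference between the strains in this response passed for 3 of the 9 members, where 20.7% of all probe sets passed and 10.5% were lower. SIP2, at -0.29 (adjusted p = 0.217), passed with the replicate block (adjusted p = 0.0322), as did 34.4% of all probe sets. That block, by description number within each strain, was chosen after seeing the data, so passes gained with it, here and below, are no support for a difference. Its numbers paired the reference arrays but not the mutant arrays. The response of SNF1 was lower in the mutant strain by 0.63 (difference -0.63, SE 0.0886, adjusted p = 7.12e-04), and this call stood without any 1 of the 8 arrays. The response of MIG1 was lower by 0.70 (difference -0.70, adjusted p = 0.0258) and that of MIG3 by 0.67 (difference -0.67, adjusted p = 0.033). For MIG1 the call was lost when array 1 of glucose-limited or nitrogen-limited reference cells or any mutant array was left out (differences -0.71 to -0.55, adjusted p 0.0646 to 0.0845). For MIG3 it was lost without any array but array 2 of glucose-limited reference cells, with differences from -0.75 to -0.59 and adjusted p up to 0.108. MIG2, whose response was numerically lower by 0.35 (difference -0.35, 95% interval -1.22 to 0.531), did not pass.

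On ethanol fewer members passed between nitrogen and ethanol limitation. In the reference strain 1 of 9 members passed, where 8.21% of all probe sets passed, and in the mutant strain 0 of 9, where 14.3% passed in limma and 1 member, MIG2, had an unadjusted p under 0.05. The member that passed was SNF4, higher by 0.16 (SE 0.0412, adjusted p = 0.044), and the call was lost without any 1 of the 4 arrays (adjusted p 0.12 to 0.214). MIG1 had a difference of 0.27 in the reference strain (adjusted p = 0.3). Its replicate arrays differed the same way in all 4 reference groups, and with a replicate block within each strain, by the number in the description, it passed (adjusted p = 8.95e-04), as did 15.2% of all probe sets. MIG2 of the mutant strain had a difference of -0.73 (adjusted p = 0.105). Its arrays of nitrogen-limited cells on ethanol stood far apart, at 10.68 and 9.68, and without array 1 of that group the difference was -1.23 (adjusted p = 0.00991). MIG3 of the reference strain had a difference of 0.36 (adjusted p = 0.17), which was 0.59 (adjusted p = 0.0167) without array 2 of nitrogen-limited cells on ethanol. GAL83 of the mutant strain, at 0.17, was at 0.30 (adjusted p = 0.0321) without array 1 of ethanol-limited cells. For the strain difference in this response 0 of 9 members passed in limma, 1 had an unadjusted p under 0.05 and 6.23% of all probe sets were called. With the replicate block MIG1 passed (difference -0.31, adjusted p = 0.0042), as did 18.1% of all probe sets. Without array 1 of nitrogen-limited mutant cells on ethanol MIG2 passed (difference -1.47, adjusted p = 0.02).

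Whether the response to nitrogen limitation depended on the carbon source was tested within each strain. In the reference strain 4 of 9 members passed, where 24.5% of all probe sets did and 10.5% in the lower direction, and all 4 responded less on ethanol. The response of MIG2 was lower by 2.25 (difference -2.25, SE 0.394, adjusted p = 0.00216), that of MIG3 by 2.19 (difference -2.19, SE 0.193, adjusted p = 1.97e-05) and that of SNF1 by 0.55 (difference -0.55, adjusted p = 0.00132). GAL83 differed by -0.40 (adjusted p = 0.0303), a call that was lost without array 2 of glucose-limited cells, array 2 of nitrogen-limited cells on glucose or any of the 4 ethanol arrays (differences -0.44 to -0.32, adjusted p up to 0.0935). MIG1, at -0.41 (adjusted p = 0.145), passed with the replicate block (adjusted p = 2.23e-04), where 37.5% of all probe sets did. In the mutant strain 3 of 9 passed, where 33.8% of all probe sets did. MIG2 differed by -2.87, MIG3 by -1.83 and SNF4 by -0.30 (adjusted p = 2.97e-04, 4.23e-05 and 0.00267). GAL83, at -0.32 (adjusted p = 0.0601), was at -0.45 without array 2 of ethanol-limited mutant cells. With the replicate block GAL83 passed (adjusted p = 0.0138), as did 47.1% of all probe sets, though its numbers did not pair the mutant arrays. SIP2, at 0.43 (adjusted p = 0.0526), passed in 7 of the 17 alternatives run. Among the 7 were quantile normalization (adjusted p = 0.0209), median centring (adjusted p = 0.0203), the replicate block (adjusted p = 0.00394) and a fit of only the arrays compared (adjusted p = 0.00902). Leaving out any 1 array gave SIP2 differences from 0.38 to 0.47 and did not bring the call.

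The comparison of ethanol with glucose asks how the members depend on the carbon source. SIP2 was higher on ethanol and MIG1 lower on ethanol in all 4 comparisons, 2 in each strain. SIP2 was higher by 0.61 and 0.74 in the reference strain under carbon and nitrogen limitation and by 0.56 and 0.98 in the mutant strain, with adjusted p from 4.38e-05 to 0.00342. MIG1 fell by 0.49 and 0.91 in the reference strain and by 0.77 and 0.79 in the mutant strain. The comparisons between carbon sources use the same arrays as those between limitations, so they are not independent of them. The call of MIG1 in carbon-limited reference cells was lost without array 2 of glucose-limited cells (-0.34, adjusted p = 0.153) or array 2 of ethanol-limited cells (-0.35, adjusted p = 0.147).

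Under carbon limitation 4 of 9 members passed in the reference strain, where 24.3% of all probe sets passed, and 3 of 9 in the mutant strain, where 31.9% passed. Besides SIP2 and MIG1, SNF1 was higher on ethanol by 0.40 in the reference strain (SE 0.0626, adjusted p = 0.00105) and SNF4 was lower by 0.14 (difference -0.14, adjusted p = 0.0354). The call of SNF4 was lost without any 1 of the 4 arrays (adjusted p 0.074 to 0.161), and with only these 4 arrays in the fit no member passed (adjusted p 0.0642 for SNF1 and 0.0938 for SIP2). In the mutant strain MIG3 was lower on ethanol by 0.64 (difference -0.64, adjusted p = 0.00618), a call lost without array 2 of ethanol-limited cells (-0.55). MIG2 had a difference of 0.68 there (adjusted p = 0.0881), which passed with only the arrays compared in the fit (adjusted p = 0.0162).

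Under nitrogen limitation 6 of 9 members passed in the reference strain, where 33.6% of all probe sets passed (17.7% higher and 15.9% lower on ethanol), and 7 of 9 in the mutant strain, where 42.5% passed (19.5% higher and 23.0% lower). SNF1 of the reference strain, at -0.14 (adjusted p = 0.107), passed in 3 of the 13 alternatives run. Among the 3 were quantile normalization (-0.20, adjusted p = 0.00914) and the replicate block (adjusted p = 0.0341), with which 45.9% of all probe sets passed. MIG2 was lower on ethanol, with a difference of -2.09 in the reference strain (adjusted p = 2.51e-04) and of -2.19 in the mutant strain (adjusted p = 1.3e-04). MIG3 was lower too, with differences of -2.22 (adjusted p = 6.97e-07) and -2.47 (adjusted p = 2.14e-07). SNF4 and GAL83 were also highest in nitrogen-limited cells on glucose. On ethanol they were lower by 0.21 and 0.37 in the reference strain and by 0.24 and 0.29 in the mutant strain. With only the arrays compared in the fit, SNF4 and GAL83 lost their calls in the reference strain (adjusted p = 0.109 and 0.0707). SIP1 was higher on ethanol by 0.80 in the mutant strain (adjusted p = 0.0282) and had a difference of 0.24 in the reference strain, and the test of the strain difference did not pass (0.56, adjusted p = 0.48). That call of SIP1 was lost without either nitrogen-limited array on glucose (0.79 and 0.81, adjusted p = 0.101 and 0.0948) or without array 1 on ethanol (0.41, adjusted p = 0.244), and the call of GAL83 in the mutant strain without either array on glucose (-0.28 and -0.31, adjusted p = 0.0795 and 0.0556) or without array 2 on ethanol (-0.25, adjusted p = 0.092).

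**Figure D3:**
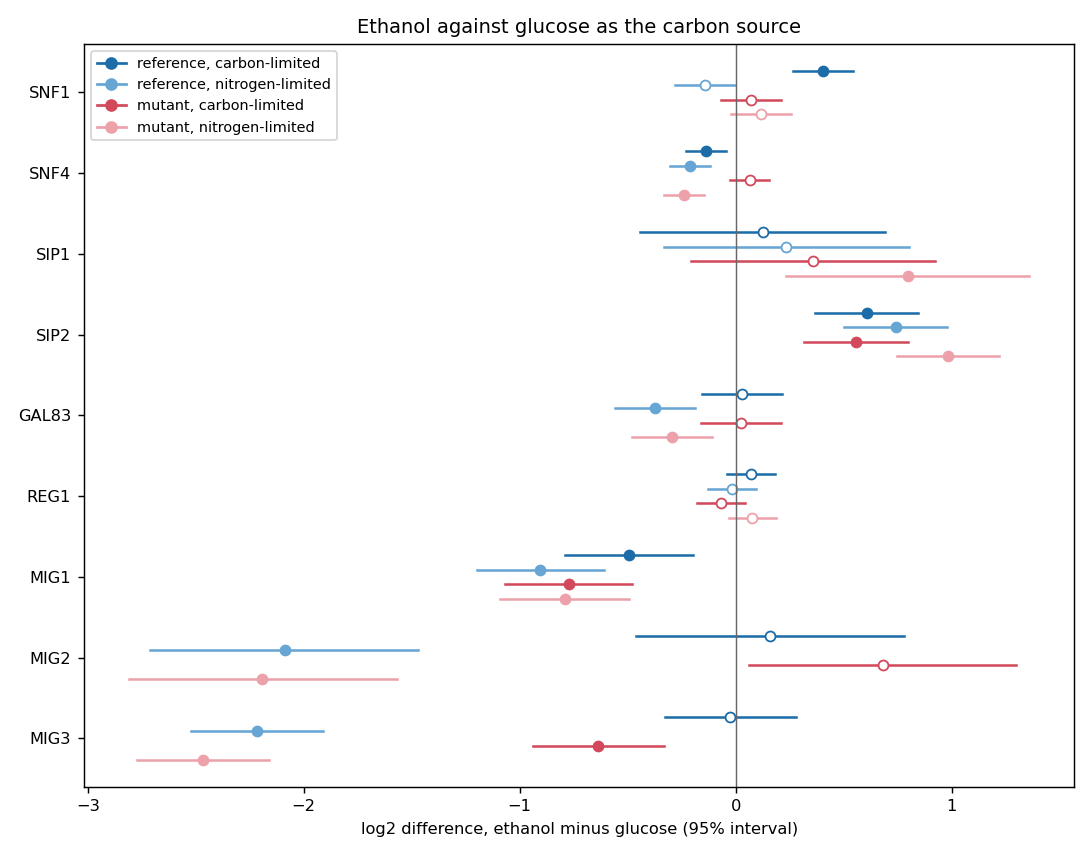
Log2 difference of each member between ethanol and glucose (horizontal axis), under carbon and nitrogen limitation in both strains, with 95% intervals from the limma fit. Filled points passed the test at an adjusted p under 0.05. SIP2 lay to the right of 0 and MIG1 to the left in all 4 comparisons, and MIG2 and MIG3 were near -2.09 to -2.47 under nitrogen limitation.

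The comparison of the strains asks which transcripts differ in the mutant within a condition. SNF1 was lower in the mutant than in the reference in each of the 4 conditions. The difference was -0.23 in glucose-limited cells (SE 0.0626, adjusted p = 0.0311), -0.86 in nitrogen-limited cells on glucose (adjusted p = 7.01e-06), -0.56 in ethanol-limited cells (adjusted p = 2.78e-04) and -0.60 in nitrogen-limited cells on ethanol (adjusted p = 1.44e-04). These are folds of 1.17, 1.82, 1.48 and 1.52. The last 3 calls stood without any 1 array, and the first was lost without array 2 of the reference strain (-0.18, adjusted p = 0.189), array 1 of the mutant strain (-0.27, adjusted p = 0.0633) or array 2 of the mutant strain (-0.19, adjusted p = 0.176). With only the 4 arrays of each comparison in the fit, the first and the last call were lost (adjusted p = 0.122 and 0.0511).

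In glucose-limited cells 3 of 9 members passed, where 18.2% of all probe sets did and 8.80% in the lower direction. Besides SNF1 they were SNF4, lower in the mutant strain (difference -0.16, adjusted p = 0.026), and MIG3, higher by 0.64 or 1.55-fold (SE 0.136, adjusted p = 0.0108). The call of SNF4 was lost without any 1 of the 4 arrays (adjusted p 0.0516 to 0.158), and that of MIG3 without array 1 of the reference strain (0.55, adjusted p = 0.0648) or array 2 of the mutant strain (0.56, adjusted p = 0.0768). MIG1 had a difference of 0.12, which passed with the replicate block (adjusted p = 0.0239), as did 34.1% of all probe sets. In nitrogen-limited cells on glucose 3 of 9 passed, where 21.1% of all probe sets did and 11.1% in the lower direction, and all 3 were lower in the mutant strain. SIP1 differed by -0.88 (SE 0.254, adjusted p = 0.0345), a call lost without any 1 array (differences -1.04 to -0.71, adjusted p 0.0549 to 0.156). MIG1 differed by -0.58 (SE 0.133, adjusted p = 0.0113), a call lost without array 1 of the reference strain (-0.46, adjusted p = 0.0781) or either mutant array (-0.59 and -0.58, adjusted p = 0.055 and 0.0641). SIP2 had a difference of -0.31 (adjusted p = 0.0659), which passed after quantile normalization (adjusted p = 0.0363). It also passed with the replicate block (adjusted p = 0.00537), as did 36.1% of all probe sets.

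On ethanol SNF1 was the 1 of 9 members that passed in ethanol-limited cells, where 24.8% of all probe sets passed and 12.6% were lower. MIG1, at -0.16, passed there with the replicate block (adjusted p = 0.00446), as did 41.8% of all probe sets. In nitrogen-limited cells on ethanol 2 of 9 passed, where 15.8% of all probe sets did and 10.1% in the lower direction, SNF1 and MIG1. MIG1 was lower in the mutant strain by 0.47 (difference -0.47, adjusted p = 0.0393), a call lost without array 1 of the reference strain (-0.32, adjusted p = 0.263) or either mutant array (-0.50 and -0.44, adjusted p = 0.111 and 0.181). MIG2 and MIG3 had differences of -0.54 and -0.29 there (adjusted p = 0.223 and 0.185), which were -1.04 (adjusted p = 0.0193) for MIG2 without array 1 of the mutant strain and -0.53 (adjusted p = 0.0177) for MIG3 without array 2 of the reference strain. GAL83 and REG1 differed between the strains by at most 0.10 in any condition (from -0.10 to 0.04), and none of these differences passed.

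**Figure D4:**
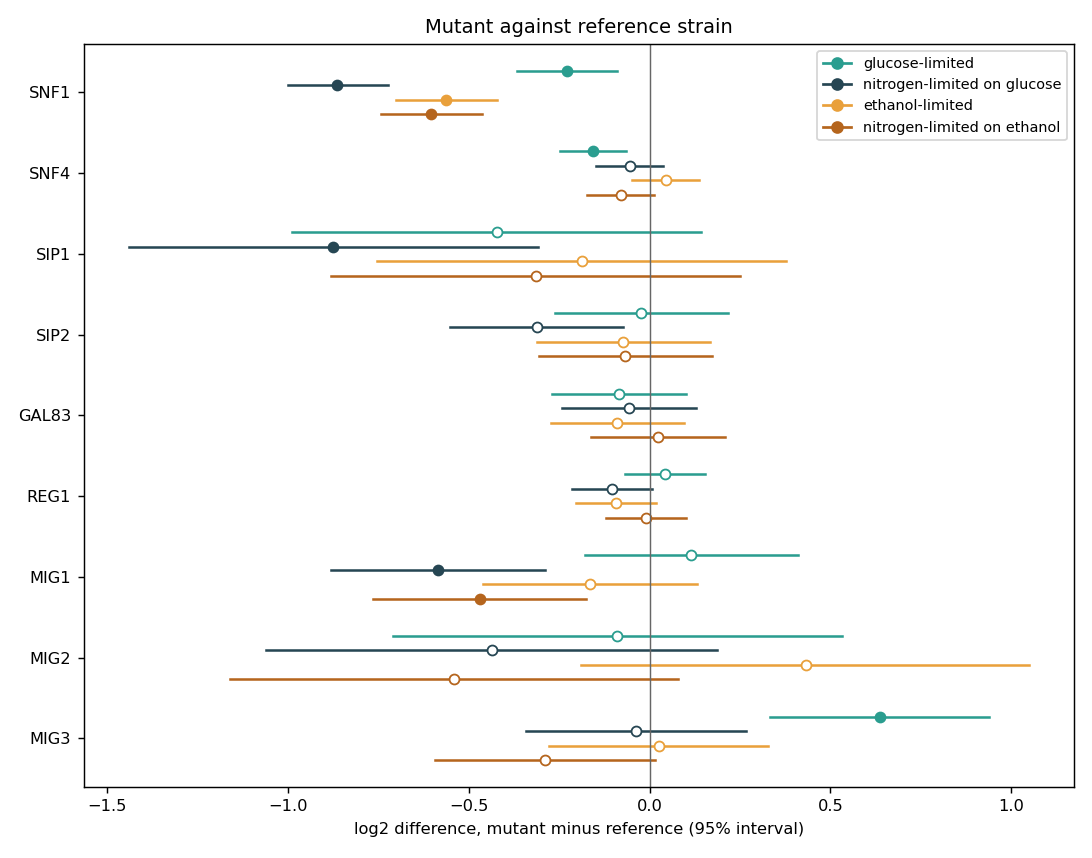
Log2 difference of each member between the mutant and the reference strain (horizontal axis) in the 4 conditions, with 95% intervals from the limma fit. Filled points passed the test at an adjusted p under 0.05. SNF1 was the member with 4 filled points, from -0.86 to -0.23.

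Whether the strains differed in their response to the carbon source was tested as well. Under carbon limitation 3 of 9 members passed, where 21.3% of all probe sets did. The response of SNF1 to ethanol was lower in the mutant strain (difference -0.33, adjusted p = 0.0238), SNF4 differed by 0.20 (adjusted p = 0.0338) and MIG3 by -0.61 (adjusted p = 0.0474). The call of MIG3 was lost without any 1 of the 8 arrays (adjusted p up to 0.143), that of SNF4 without 7 of them (adjusted p up to 0.121), all but array 2 of glucose-limited mutant cells, and that of SNF1 without array 1 of any of the 4 groups or array 2 of ethanol-limited mutant cells (differences -0.34 to -0.26, adjusted p up to 0.0884). MIG1, at -0.28, passed with the replicate block (adjusted p = 0.00218), as did 35.7% of all probe sets. Under nitrogen limitation 0 of 9 members passed in limma, where 5.72% of all probe sets did. There 1 member, SNF1, had an unadjusted p under 0.05 (difference 0.26, adjusted p = 0.138). SNF1 passed after quantile normalization (0.29, adjusted p = 0.0413) and with the replicate block (adjusted p = 0.0343). With that block 13.9% of all probe sets passed.

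Genes around the kinase were counted from lists of known pathway members. Under nitrogen limitation on glucose 21.4% of all probe sets were higher and 22.2% lower in the reference strain, against 25.2% and 23.6% in the mutant strain, and counts of a few genes near these shares are no result about a list. Of 7 genes for Snf1-activating kinases and phosphatase subunits, 2 rose and 2 fell in this comparison in the reference strain, near those shares, with a list median of 0.09 against 0.0024 over all probe sets. ELM1, a kinase that activates Snf1, rose by 0.76. REG2, a paralog of REG1 that is itself repressed by glucose, fell by 0.75 there and fell by 2.27 in the mutant strain. It was higher on ethanol in all 4 comparisons, by 2.19 and 2.46 in the reference strain under carbon and nitrogen limitation and by 1.999 and 4.18 in the mutant strain. SAK1, the main Snf1-activating kinase, rose by 0.31 (adjusted p = 0.0145), and its call was lost without either glucose-limited array (0.32 and 0.31, adjusted p = 0.0553 and 0.0582) or array 1 of nitrogen-limited cells (0.30, adjusted p = 0.0649). SIT4, a phosphatase gene, was lost without the last of these arrays too (-0.19, adjusted p = 0.0684), which leaves 2 called genes. Of these 7 genes REG2 alone differed between the strains in nitrogen-limited cells on glucose, by -1.58 (adjusted p = 5.09e-07).

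Of 8 corepressor and partner genes, 5 rose under nitrogen limitation on glucose in the reference strain and 4 in the mutant strain, where 21.4% and 25.2% of all probe sets rose. The list medians were 0.18 and 0.16 against 0.0024 and 0.0026 over all probe sets. NRG2, a repressor that Snf1 inhibits, rose by 0.83 and 0.48, and TUP1, the corepressor that Mig1 recruits together with Cyc8, by 0.21 and 0.32. HXK2, the hexokinase with a role in glucose repression, rose by 0.24 in the reference strain. The call of TUP1 in the reference strain was lost without array 2 of the glucose-limited group (0.16, adjusted p = 0.132) or array 2 of the nitrogen-limited group (0.17, adjusted p = 0.106). Without the same arrays MSN5, the nuclear exporter of Mig1, lost its call (adjusted p = 0.105 and 0.0636), so that 3 genes were left, and over all alternatives the count ran from 1 to 7. The call of NRG1, a repressor gene, was lost in the mutant strain without array 1 of the glucose-limited group or either array of the nitrogen-limited group (0.16 to 0.26, adjusted p 0.0536 to 0.192).

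Of 8 genes of the glucose sensor branch, 2 rose in the reference strain, and in the mutant strain 2 rose and 2 fell, near the shares over all probe sets. The list medians were 0.13 and -0.0006. GRR1, a ubiquitin ligase gene, was lost in the reference strain without array 1 of the glucose-limited group (0.27, adjusted p = 0.126) or array 1 of the nitrogen-limited group (0.20, adjusted p = 0.188), and YCK2, a casein kinase gene, was lost in the mutant strain without any 1 array (adjusted p 0.0826 to 0.172). STD1, which encodes a partner of Rgt1, rose by 1.62 and 1.501. SNF3, a glucose sensor, fell by 0.88 and MTH1, a corepressor with Rgt1, fell by 0.63 in the mutant strain, where both were also lower than in the reference strain (differences -0.72 and -0.87, adjusted p = 4.92e-04 and 9.76e-04). Of 4 hexose transporter genes that Rgt1 represses, 3 rose and 1 fell in both strains. HXT1, the low-affinity transporter, rose by 4.78 and 5.67, HXT3 by 1.94 and 2.28, and HXT2, a transporter made when glucose is low, fell by 1.76 and fell by 2.75. Hexose transporter genes share sequence, so their probe sets can cross-hybridise.

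Of 8 listed activator genes linked to Snf1, 2 rose and 5 fell under nitrogen limitation on glucose in the reference strain, where 21.4% and 22.2% of all probe sets did. In the mutant strain 2 rose and 4 fell, where 25.2% and 23.6% did. The list medians were -0.30 and -0.40 against 0.0024 and 0.0026 over all probe sets. Without either glucose-limited array or array 2 of nitrogen-limited cells, HAP4 lost its call in the reference strain (differences -0.21 to -0.15). MSN2 lost its call in the mutant strain without the arrays of the same numbers (0.14 to 0.17). SIP4, an activator of gluconeogenic genes, fell by 2.19 and 3.07, and CAT8, which acts on the same genes and on SIP4, fell by 1.22 and 2.37. MSN4, a stress activator, rose by 1.485 and 1.484, and ADR1, the activator of ADH2, fell by 1.04 and 2.07. In nitrogen-limited cells on glucose CAT8 differed between the strains by -0.9995, ADR1 by -0.93 and MSN4 by -0.36, 3 of the 8 genes, all lower in the mutant strain.

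Of 14 listed genes that are known to be repressed by Mig1, 12 had a probe set. Under nitrogen limitation on glucose 7 of them fell and 1 rose in the reference strain, where 22.2% of all probe sets fell, and 11 fell and 1 rose in the mutant strain, where 23.6% fell, with list medians of -0.55 and -1.50 against 0.0024 and 0.0026 over all probe sets. FBP1, the gluconeogenic fructose bisphosphatase, fell by 2.28 and fell by 2.66. SUC2, the invertase gene, fell by 1.86 in the reference strain, and CAT8 fell by 2.37 in the mutant strain. The gene that rose was HXT4, a hexose transporter gene, by 0.83 and 0.41. MAL32, a maltase gene, lost its call in the reference strain without array 1 of the glucose-limited group (-0.65, adjusted p = 0.0672) or array 1 of the nitrogen-limited group (-0.56, adjusted p = 0.0783). The call of GAL3, a galactose sensor gene, was lost in the mutant strain without any 1 array (adjusted p 0.0826 to 0.106), and EMI2, a hexokinase-like gene, without array 1 of the glucose-limited group or array 2 of the nitrogen-limited group (-0.50 and -0.52, adjusted p = 0.178 and 0.166). Of the 12 genes 6 also stand in another list.

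In nitrogen-limited cells on glucose MIG1 was lower in the mutant strain, and MIG2 and MIG3 had differences of -0.44 and -0.04 (adjusted p = 0.3 and 0.86). With only the arrays compared in the fit MIG2 passed (adjusted p = 0.0335). Its mutant arrays both read 12.37, below the 12.85 and 12.76 of the reference strain. In the same cells 9 of the 12 Mig1 target genes were lower in the mutant strain and 3 did not pass. In this comparison 11.1% of all probe sets were lower. The list median was -0.93, against 0.000097 over all probe sets, and 9 genes passed also when any 1 array was left out. REG2 differed by -1.58, HXT4 by -1.31 and MAL32, of a family with near-identical copies, by -1.20. In each of the other conditions 3 of the 12 were lower in the mutant strain, where 8.80%, 12.6% and 10.1% of all probe sets were lower in glucose-limited, ethanol-limited and nitrogen-limited cells on ethanol. In ethanol-limited cells REG2 was lost without any 1 array (adjusted p 0.0678 to 0.203) and SUC2 without array 1 of the mutant (-0.18, adjusted p = 0.0589) or of the reference strain (-0.19, adjusted p = 0.0843). In nitrogen-limited cells on ethanol SUC2 was lost without array 1 of the mutant (-0.22, adjusted p = 0.0627) or of the reference strain (-0.20, adjusted p = 0.0661), and HXT2 without those arrays or array 2 of the mutant strain (-0.27 to -0.26, adjusted p 0.0753 to 0.0884). HXK1, a hexokinase gene, kept its call in both conditions without any 1 array. In glucose-limited cells GAL1, the galactokinase gene, was higher by 0.44. The difference between the strains in the response to nitrogen limitation on glucose passed for 6 of the 12, all with a lower response in the mutant strain, where 10.5% of all probe sets were lower. MTH1 among them had a difference of 0.32 in the reference strain, which did not pass, and fell by 0.63 in the mutant strain. The differences were -1.52 for REG2, -1.15 for CAT8 and -0.99 for HXT2 (adjusted p = 1.01e-05, 1.01e-04 and 2.48e-05). MAL32, also among the 6, was near the threshold, at -0.93 (adjusted p = 0.0439). Over the alternatives its difference ran from -1.16 to -0.69, and its call was lost in some of them.

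**Figure D5:**
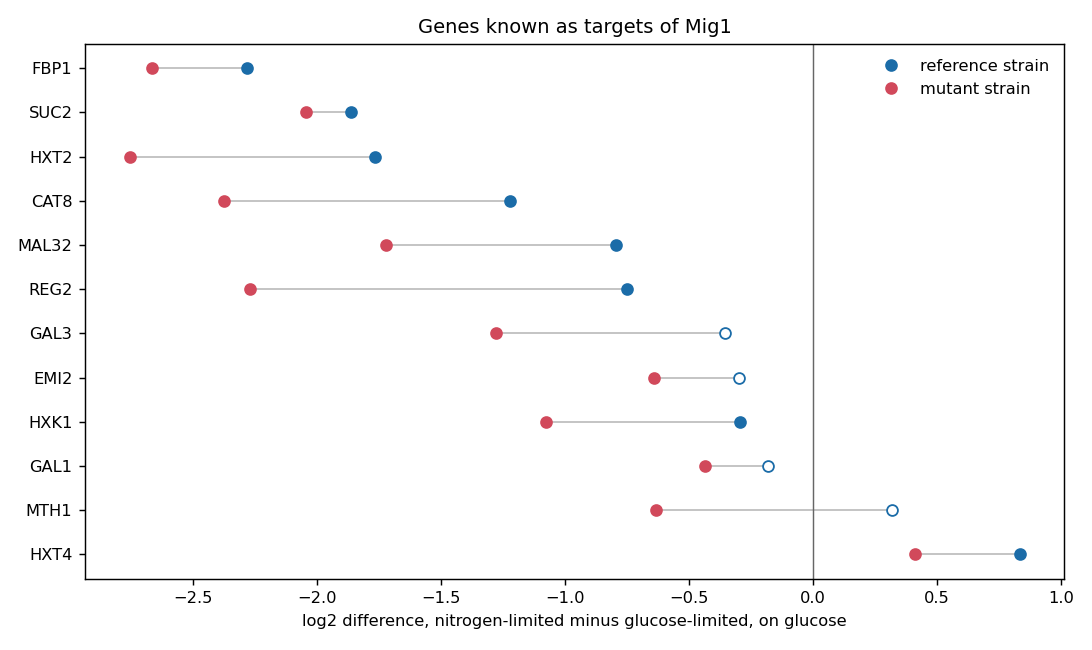
Log2 difference between nitrogen-limited and glucose-limited cells on glucose (horizontal axis) of the 12 measured Mig1 target genes (vertical axis), in the reference strain (blue) and the mutant strain (red), joined by a line. Filled points passed the test at an adjusted p under 0.05. All 12 genes lay further left in the mutant strain, and HXT4 was the gene to the right of 0 in both, at 0.83 and 0.41.

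On ethanol the Mig1 target genes did not move as a block. Against glucose under nitrogen limitation 3 were higher and 3 lower in the reference strain, near the 17.7% and 15.9% of all probe sets, and 7 were higher and 3 lower in the mutant strain, where 19.5% and 23.0% were, with list medians of 0.10 and 0.66. FBP1 was higher by 4.32 and 5.45 and REG2 by 2.46 and 4.18, whereas HXT4 was lower by 3.07 in the reference strain (difference -3.07). Between nitrogen and ethanol limitation 3 of the 12 fell in each strain, where 3.59% and 7.79% of all probe sets fell, HXT2 by 1.33 and 1.49 and SUC2 by 0.39 and 0.42 among them.

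Members whose group means spanned at least 1 were compared with all other genes of such a span. The measure is the Pearson correlation of the 8 group means, a description over 8 points that share strain and condition. MIG3 was most like PDC5, a pyruvate decarboxylase gene (r = 0.989), ARI1, an NADPH-dependent reductase gene, and RED1, a gene of meiotic chromosomes (both r = 0.987). SIP2 was most like REG2 (r = 0.988), CRC1, the mitochondrial carnitine carrier gene (r = 0.982), and SNO1, a gene of vitamin B6 metabolism (r = 0.979). MIG2 was most like YNL234W, EEB1, an acyltransferase gene of ester synthesis, and FCY21, with r of 0.975, 0.974 and 0.974. MIG1 was most like YKR075C, GTT2, a glutathione transferase gene, and UCC1, an F-box gene, with r of 0.939, 0.937 and 0.936. SIP1 was most like CHL1, a helicase gene, FOB1, a replication fork barrier gene, and EAR1, with r of 0.995, 0.987 and 0.985.

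Among the members themselves the same measure was highest for SNF4 with GAL83 and for MIG2 with MIG3, both at 0.934, and for GAL83 with MIG2 at 0.909 and with MIG3 at 0.906. It was lowest for SIP2 with MIG3, at -0.79, and with MIG1, at -0.79. In the order of genes in the RefSeq annotation GAL83 is next to MIG3 and SIP2 is next to MIG2. The first pair of neighbours had like patterns, and the second did not (r = -0.62).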

How the data were processed

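The deposited intensities are per probe set and array on a linear scale. The study's methods describe background correction, quantile normalization and a median polish summary for the raw array files it used. They do not state whether the deposited values went through the same steps. The submitters' processing notes name GCRMA. No source used here gives its version or the step to a linear scale. The lowest value is 1. All 16 columns were used, 0 were left out, and log2 was taken without an offset. Genes were named through the platform's probe-to-gene table. Of 5716 probe sets, 5498 carry 1 symbol and 218 none, and 12 symbols were updated.

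A linear model of the 8 group means was fitted with limma 3.58.1 in R 4.3.3, with eBayes, 8 residual and 2.01 prior degrees of freedom. From it 18 comparisons were taken, 12 between groups and 6 of differences between them. Tests were Benjamini-Hochberg adjusted over all probe sets, and 95% intervals come from the same fit. The fit was tested on simulated data. The 9 members and the gene lists were chosen with earlier results of these data known. All members are named, and from each list up to 3 members with the largest difference past the test. For members spanning at least 1 the 3 genes most like them were named.

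The lists covered nitrogen catabolite repression, ethanol use, Snf1 activation, repression partners, the sensor branch, Rgt1 targets, activators linked to Snf1 and Mig1 targets. Alternatives were quantile normalization, median centring, an offset of 16 before log2, brighter probe sets only, an intensity trend with a robust prior, replicate blocks, only the arrays compared, and leaving out each array. Array numbers are those of the sample titles. For the glucose-limited reference arrays the description numbers them the other way round. Differences between replicate arrays, taken by description number, correlated across probe sets in all pairs of reference groups (0.354 to 0.682), so these numbers pair the reference arrays. They ran from 0.0227 to 0.294 in the mutant strain, too low to pair its arrays. A block by that number within each strain was chosen after seeing the data. Its values stand where it changes a call and are no support for a difference. The study's text describes a time course, whereas the labels give steady-state groups, and the labels were followed. Sequences of promoters and proteins were not analysed here.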

Additional observations from a re-analysis of the deposited data

Results flagged for a closer look

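These results are differences between 2 responses that passed the test of the difference itself. Groups of 2 arrays allow no test of an array that lies far from its group.

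The response to nitrogen limitation differed between ethanol and glucose by -0.55 for SNF1, -0.40 for GAL83, -2.25 for MIG2 and -2.19 for MIG3 in the reference strain. In the mutant strain it differed by -0.30 for SNF4, -2.87 for MIG2 and -1.83 for MIG3. The response to nitrogen limitation on glucose differed between mutant and reference by -0.63 for SNF1, -0.70 for MIG1 and -0.67 for MIG3. The response to ethanol under carbon limitation differed between mutant and reference by -0.33 for SNF1, 0.20 for SNF4 and -0.61 for MIG3.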

How the results depend on the processing

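Of 162 differences (9 members in 18 comparisons) 55 passed the test, 35 of these without any 1 array and 29 in every alternative run, and 0 called differences changed sign. For nitrogen against ethanol limitation in the reference strain 0 members passed with quantile normalization, median centring, the intensity trend, the replicate block by title number or only the arrays compared. With quantile normalization 1 passed for the strain difference in the ethanol response under nitrogen limitation. With brighter probe sets only, which leaves out GAL83, MIG2 and MIG3, 3 members passed for nitrogen against glucose limitation in each strain, 3 and 4 for ethanol against glucose under nitrogen limitation in the reference and the mutant strain, 1 for the carbon source dependence in the reference strain and 5 in the F test. With only the arrays compared, 0 passed for ethanol against glucose in carbon-limited reference cells, 1 and 0 between the strains in glucose-limited cells and in nitrogen-limited cells on ethanol, and 1 for the strain difference in the ethanol response under carbon limitation.

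By title number the differences between replicate arrays correlated at -0.682 to 0.655 within the reference strain, and across strains no number paired the arrays (-0.471 to 0.236). A replicate block within each strain by description number, chosen after seeing the data, gave 2 members for nitrogen against ethanol limitation in the reference strain, 2 between the strains in ethanol-limited cells, 5 for the carbon source dependence in the mutant strain, and 1 each for the strain difference in the limitation response on ethanol and in the ethanol response under nitrogen limitation. It ended no call of a member. MIG1 was higher on the array numbered 1 in the description in all 4 reference groups, by 0.25 to 0.31.

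Leaving out each array gave, in the reference and the mutant strain, 6 to 6 and 4 to 5 members for nitrogen against glucose limitation, 0 to 1 and 0 to 1 for nitrogen against ethanol limitation, 2 to 3 and 2 to 3 for ethanol against glucose under carbon limitation, and 6 to 6 and 5 to 6 under nitrogen limitation. Between the strains 0 to 1 passed in glucose-limited cells, 1 to 2 in nitrogen-limited cells on glucose, 1 to 1 in ethanol-limited cells and 1 to 3 in nitrogen-limited cells on ethanol. The carbon source dependence gave 3 to 4 in both strains, the strain differences in the limitation response 1 to 3 on glucose and 0 to 1 on ethanol, those in the ethanol response 0 to 2 and 0 to 0, and the F test 7 to 8. Fewer arrays were fitted in these and in the fits of only the arrays compared, and the cause of the other changes was not tested. The promoter motif and protein identity comparisons were not run.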
